A study of Mus musculus with 24 samples.

Results

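Livers of 12 streptozotocin-injected mice that ate quercetin, at either of 2 doses, were set against livers of 6 streptozotocin-injected mice that ate the same diet without it. The arrays were taken by their titles, 6 for 0.1% quercetin, 6 for 0.5% quercetin and 6 for streptozotocin alone, which made 18 of the 24 arrays of the series. The other 6 arrays came from untreated mice and gave the background level. Quercetin is a plant flavonol that gut and liver conjugate to glucuronides and sulfates. Streptozotocin (STZ) is a DNA-alkylating toxin that enters cells through the glucose transporter Slc2a2 and destroys insulin-producing beta cells, and hepatocytes carry the same transporter. In liver, insulin favours the use of glucose and the synthesis of fat and glycogen, and it holds down the genes of glucose output and Pdk4 and Igfbp1.

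All mice were male BALB/c, 6 weeks old on arrival, and were kept for 1 week before STZ was given. The STZ + 0.1% quercetin mice, the STZ + 0.5% quercetin mice and the STZ mice had 1 intraperitoneal injection of 185 mg/kg STZ. One week after it, mice with a non-fasting glucose of 230 to 400 mg/dL were shared out to the 3 diets, all based on the purified feed AIN93G, for 14 days. The control mice had no injection and ate AIN93G, so the labels give no injected mice free of STZ and no healthy mice on quercetin. The labels tie no mouse to a cage, although 3 mice shared each, and the light cycle was turned round so that the dark phase fell in the daytime. The hour of death is not given in the sources used here.

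One array was made per mouse from whole liver RNA. Levels are on the scale of log2(intensity + 16) after quantile normalization, so an unmeasurable signal lies at 4.00 and folds of genes near it are understated. Precision is set by how many mice each group had. A difference is the average of the 2 quercetin group means minus the STZ mean, with its standard error (SE) from limma, and p-values were adjusted over 13117 genes. The summed intensity of the 9 tested hepatocyte markers of 12 listed was 39166 to 42455 in quercetin mice, 39051 to 41753 in STZ mice and 40506 to 41867 in control mice. The groups did not separate in these markers, all of which gave signal above the filter. As a sign of RNA quality, the Gapdh control probe sets were compared between their 3' and 5' ends, and the log2 difference averaged -0.26 ± 0.16 in quercetin mice (SD, n = 12), -0.34 ± 0.09 in STZ mice and -0.04 ± 0.16 in control mice (SD, n = 6 each). Quercetin and STZ mice did not differ in it beyond their spread (two-sided exact permutation p = 0.284, adjusted over 5 array measures 0.483). In whole tissue, fewer cells of a type and less RNA per cell cannot be told apart.

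Replicates 5 and 6 of the 0.5% group stood apart from the other STZ-injected mice before any gene was tested for quercetin. On the first principal component, which held 22.4% of the variance, they lay at -17.2 and -19.2. All other quercetin mice lay between -0.42 and 19.6, the STZ mice between -0.86 and 15.0, and the control mice between -18.3 and -13.5. The transcript of Cdkn1a, the p53-induced cell cycle inhibitor p21, was at 5.01 and 4.72 in these 2 mice, against 7.52 to 9.29 in the other 10 quercetin mice, 8.40 to 8.91 in STZ mice and 4.85 to 6.04 in control mice. Both mice thus lay nearer to control mice than to the other STZ-injected mice in this measure. Why they did so was not tested, and values without them are given beside the results below. These 2 mice were set aside for lying with control mice. Smaller differences without them, in genes higher in STZ than in control mice, can follow from that choice alone. The Gapdh differences of the 2 mice, -0.05 and 0.0028, were the highest of the STZ-injected mice and lay within the control range of -0.16 to 0.26. The part of RNA quality in their values was not tested.

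No gene passed the test between quercetin and STZ mice. Limma called 0 of 13117 genes higher and 0 lower (0% in each direction) at an adjusted p under 0.05, and the smallest adjusted p was 0.507. At an unadjusted p under 0.05 there were 369 genes higher (2.81%) and 364 genes lower (2.78%) in quercetin mice. That made 733 genes (5.59%), where 656 would fall there if the p-values were spread evenly. Without 0.5% replicates 5 and 6 the counts were 346 higher (2.64%) and 332 lower (2.53%), with a smallest adjusted p of 0.732. On the intensities as deposited the unadjusted counts were 80 higher and 460 lower, and after scaling each array to its median 153 higher and 705 lower, so the balance of directions rested on the scaling.

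**Figure D1:**
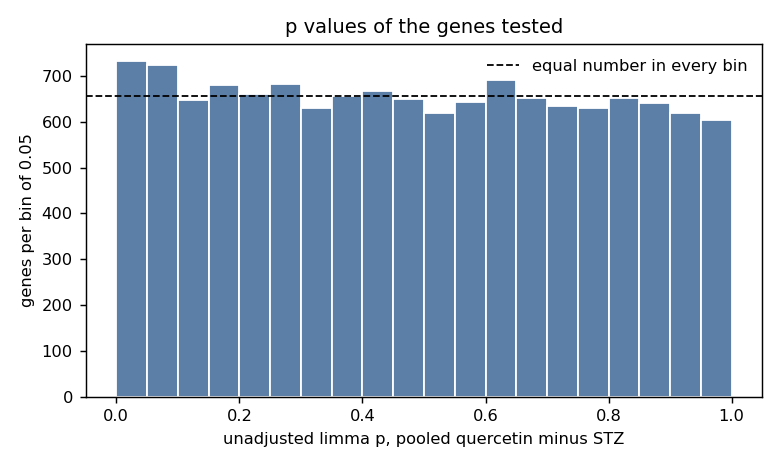
The number of genes in each bin of 0.05 of the unadjusted limma p for both quercetin doses minus STZ, over 13117 genes, with a dashed line at an equal number per bin. The leftmost bin held 733 genes and the line stands at 656.

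The differences were small as well as uncalled. Differences stayed under 0.20 in size for 92.8% of genes, with a median SE of 0.09. For 13066 genes (99.6%) the 95% interval lay inside -1 to 1, and for 12538 genes inside -0.5 to 0.5. Only 38 genes differed by more than 0.5 and 3 by more than 1: Dbp, Cdkn1a and Cplane1, the last of which was chosen after its values were seen.

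Among the genes that insulin controls, the kinase Pdk4 had the smallest p of those with lower levels in quercetin mice. Pdk4 phosphorylates pyruvate dehydrogenase and so keeps pyruvate out of oxidation. Its lowest, median and highest levels were 4.53, 4.94 and 5.27 in quercetin mice, against 5.06, 5.44 and 5.75 in STZ mice and 4.63, 5.10 and 5.29 in control mice. Of the quercetin mice, 8 of 12 lay under every STZ mouse and 10 of 12 inside the control range. The difference was -0.51 (SE 0.11, 95% interval -0.73 to -0.28), which did not pass (adjusted p = 0.507). It was -0.52 without 0.5% replicates 5 and 6. The means were 4.79 ± 0.20 at 0.1% and 5.05 ± 0.20 at 0.5% (SD, n = 6 each). The sister kinase Pdk1 differed by -0.29 (SE 0.11), with 9 of 12 quercetin mice under every STZ mouse. Among 10 tested genes for the pyruvate dehydrogenase complex and its kinases, 0 were called, 6 were below 0 and the median difference was -0.05, beside 0.00 over all genes.

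Igfbp1, a secreted binding protein of insulin-like growth factors that insulin holds down, gave 7.43, 8.29 and 8.92 as the lowest, median and highest levels in quercetin mice. It gave 7.95, 8.84 and 10.12 in STZ mice, and 6.67, 7.67 and 8.23 in control mice. The groups overlapped widely, with 3 of 12 quercetin mice under every STZ mouse, although no quercetin mouse reached the highest STZ values. The difference was -0.77 (SE 0.28, adjusted p = 0.81), and -0.67 without the 2 mice that stood apart. The list of 19 genes for insulin signalling and binding proteins gave a median of 0.04 in quercetin minus STZ mice, with 0 genes called. The median was -0.05 on the values as deposited and -0.02 after median scaling. The list members Igf1 and Grb10 differed by 0.16 and 0.25, while 3 other probe sets of Igf1 ran from -0.06 to 0.07.

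**Figure D2:**
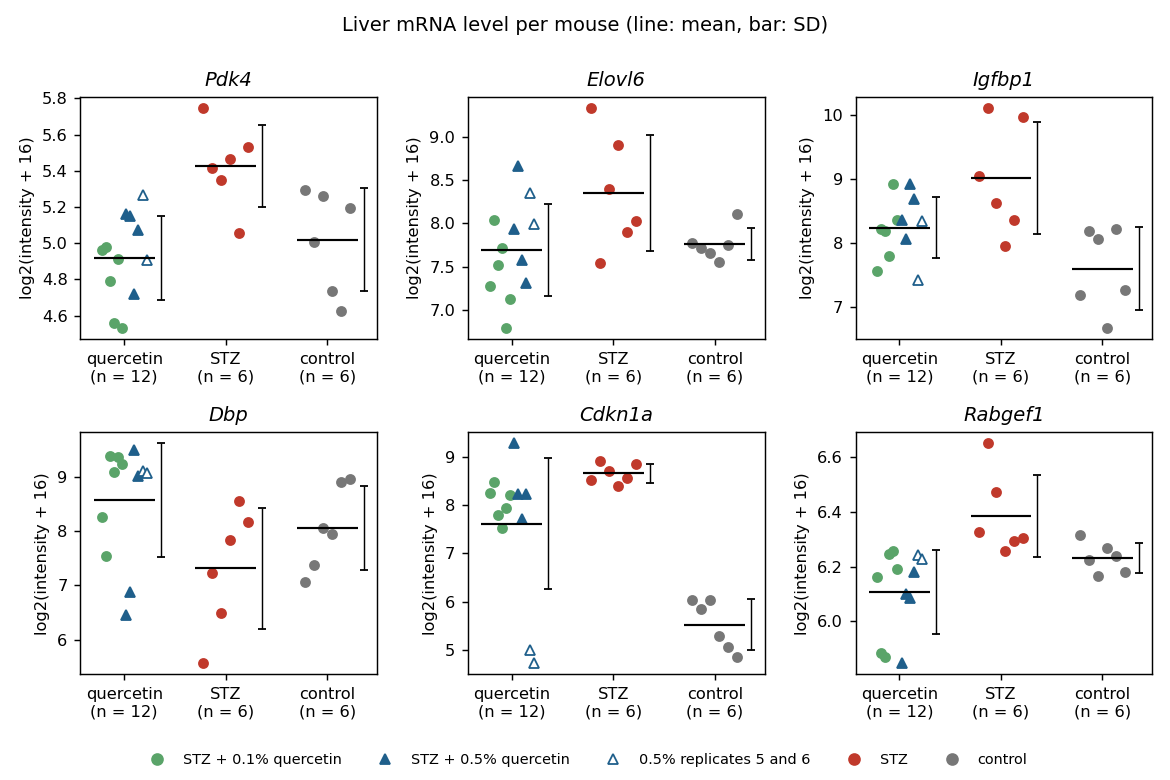
Log2(intensity + 16) of 6 genes in each mouse, by group, with the mean as a line and the SD as a bar; open triangles are 0.5% replicates 5 and 6. Pdk4 ran from 4.53 to 5.27 in quercetin mice and from 5.06 to 5.75 in STZ mice, Rabgef1 did not overlap between them, and the wide bar of Cdkn1a rests on the open triangles.

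The genes of fatty acid synthesis lay lower in quercetin than in STZ mice by their means, with the larger part at the lower dose. Elovl6, which lengthens palmitate, was at 6.79, 7.64 and 8.66 (lowest, median, highest) in quercetin mice, against 7.54, 8.21 and 9.33 in STZ mice and 7.55, 7.73 and 8.11 in control mice. The 2 STZ-injected sets overlapped, and 5 of 12 quercetin mice lay under every STZ mouse. The difference was -0.66 (SE 0.21, adjusted p = 0.739). Fasn, the fatty acid synthase, had 7.47, 7.88 and 9.42 in quercetin mice and 7.96, 8.71 and 9.82 in STZ mice. Of the quercetin mice, 7 of 12 lay under every STZ mouse for Fasn, and its difference was -0.55 (SE 0.24, adjusted p = 0.863). Acly, which makes cytosolic acetyl-CoA, had 7.87, 8.76 and 10.20 in quercetin mice and 8.57, 9.64 and 10.65 in STZ mice, with a difference of -0.59 (SE 0.28, adjusted p = 0.875). Its other 4 probe sets ran from -0.67 to 0.04.

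Me1, which supplies NADPH to the same pathway, differed by -0.42 (SE 0.21), Scd1, the stearoyl-CoA desaturase, by -0.29 (SE 0.16), and their regulator Srebf1 by -0.10 (SE 0.16). None of these passed. Over the 22 genes for fatty acid and triglyceride synthesis 0 were called and 17 were below 0, beside 49.1% of all genes, with a median of -0.12. The unadjusted test gave 3 lower and 0 higher, beside 2.78% lower and 2.81% higher over all genes. Without 0.5% replicates 5 and 6 the median was -0.21. The medians were -0.25 for 0.1% quercetin minus STZ and -0.03 for 0.5% quercetin minus STZ, the last of which was -0.08 without the 2 mice.

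The enzymes of cholesterol synthesis had a median of -0.15, with 15 of 19 genes below 0, 0 called and 0 past an unadjusted p of 0.05 in either direction. Hmgcs1, which opens the pathway, differed by -0.35 (SE 0.21), Pmvk by -0.32 (SE 0.17), Insig1, the sterol-sensing brake on the pathway, by -0.24 (SE 0.12), and Sqle by -0.13 (SE 0.20). Sqle stood at 5.00, 5.63 and 6.13 in quercetin mice and 5.27, 5.66 and 6.60 in STZ mice. STZ replicate 2 alone made the top of that range, and without it the Sqle difference was 0.04. The list median was -0.07 without STZ replicate 2 and -0.20 without the 2 mice that stood apart.

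Genes of glucose use and glycogen also had more members below than above 0. Pygl, liver glycogen phosphorylase, was at 10.0002, 10.25 and 10.62 in quercetin mice, against 10.38, 10.56 and 10.83 in STZ mice and 10.28, 10.38 and 10.52 in control mice. Of the quercetin mice, 8 of 12 lay under every STZ mouse, and the difference was -0.28 (SE 0.08, adjusted p = 0.735). The glycogen-targeting subunits of protein phosphatase 1, Ppp1r3c and Ppp1r3g, differed by -0.41 (SE 0.16) and -0.37 (SE 0.12). The glycogen synthase of liver, Gys2, differed by 0.03 (SE 0.11) and turned negative on the values as deposited (-0.08) and after median scaling (-0.05). Over 15 glycogen genes 0 were called, 11 were below 0 and the median was -0.11. Without the 2 mice that stood apart 9 were below 0 with a median of -0.08, and without STZ replicate 2 the median was -0.05.

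Pklr, liver pyruvate kinase, had 7.21, 8.34 and 9.02 in quercetin mice and 8.39, 8.59 and 9.13 in STZ mice, with 6 of 12 quercetin mice under every STZ mouse and a difference of -0.41 (SE 0.16, adjusted p = 0.835). Khk, which phosphorylates fructose, differed by -0.20 (SE 0.09) and the transporter Slc2a2 by -0.12 (SE 0.09). Of 8 tested genes of 13 listed for glycolysis, fructose and glucose uptake, 7 were below 0 with a median of -0.09, and 0 were called.

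The genes of glucose output did not lean to one side. Their median was -0.02 over 16 genes, with 8 above 0, 8 below 0 and 0 called, and 0.0082 without the 2 mice that stood apart. G6pc, which releases free glucose, ran from 8.05 through 8.92 to 10.39 in quercetin mice, against 9.27, 9.63 and 10.35 in STZ mice and 8.66, 9.19 and 9.995 in control mice. The quercetin mice spanned the STZ range and beyond, with 7 of 12 under it and 2 above it. The pooled difference of -0.47 (SE 0.26, adjusted p = 0.895) joined -0.97 at 0.1% and 0.03 at 0.5%. It was -1.04 in replicates 1 to 3 and 0.10 in replicates 4 to 6. Pck1, which makes phosphoenolpyruvate from oxaloacetate, differed by -0.16 (SE 0.15), and Got1, which carries carbon and nitrogen between compartments, by -0.64 (SE 0.25). The transcription factor Creb3l3 differed by 0.14 (SE 0.07), Pcx, pyruvate carboxylase, by -0.14 (SE 0.07), and the coactivator Ppargc1a by 0.01 (SE 0.09), a sign that turned on the values as deposited (-0.05) and after median scaling (-0.03).

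**Figure D3:**
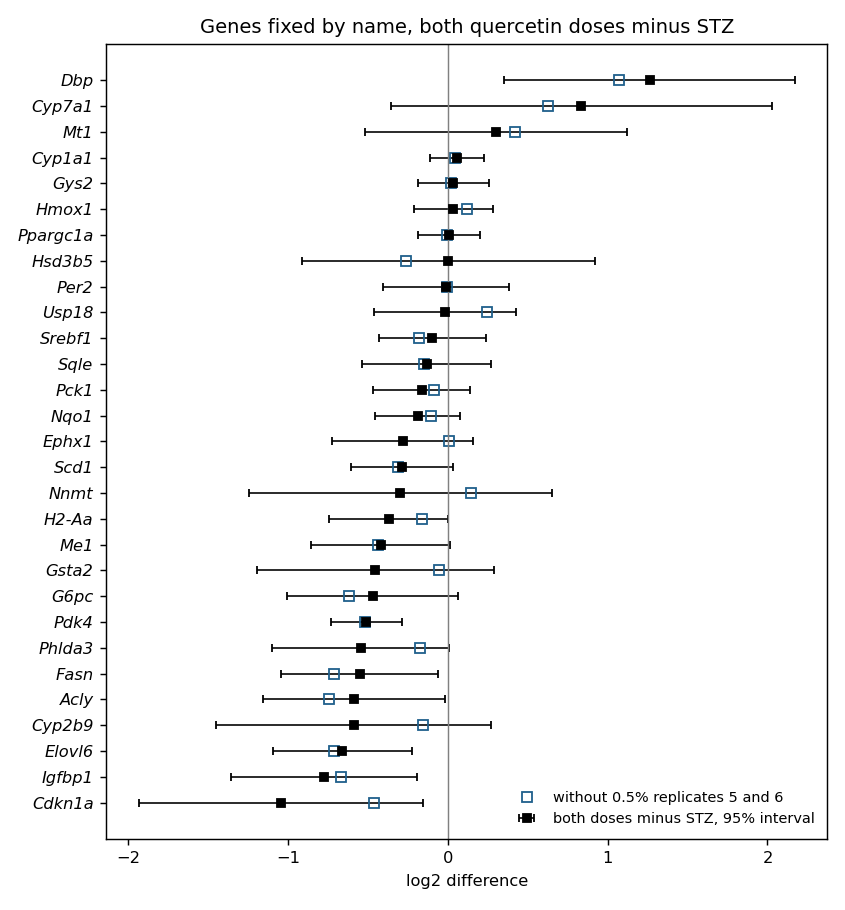
Log2 difference of both quercetin doses minus STZ for 29 genes fixed by name, as filled squares with the 95% interval, and without 0.5% replicates 5 and 6 as open squares. Before adjustment the intervals of Pdk4, Elovl6, Igfbp1, Fasn, Acly, Cdkn1a and Dbp stayed off 0, and the open squares of Cdkn1a, Phlda3, Nnmt, Gsta2 and Cyp2b9 lay nearer to 0 or past it.

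Differences in genes that respond to DNA damage were smaller without the same 2 mice. Cdkn1a had 4.72, 8.08 and 9.29 in quercetin mice, against 8.40, 8.63 and 8.91 in STZ mice and 4.85, 5.57 and 6.04 in control mice. Of the quercetin mice, 10 of 12 lay under every STZ mouse and 1 above them. The difference was -1.04 (SE 0.43, adjusted p = 0.85), -0.39 by a second probe set, and -0.46 without 0.5% replicates 5 and 6. Phlda3, a p53-induced inhibitor of Akt, had 4.82, 7.02 and 7.34 in quercetin mice and 6.89, 7.27 and 7.58 in STZ mice. Its difference of -0.55 (SE 0.27) was -0.17 without the 2 mice, and 0.16 in replicates 1 to 3 alone. Trp53inp1 and Ccng1, both p53 targets, differed by -0.51 and -0.48, and by -0.26 and -0.20 without them.

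Over 26 tested p53 targets and DNA damage genes 20 were below 0, 0 were called, and the median was -0.09, or -0.05 without the 2 mice, 0.04 in replicates 1 to 3 alone and -0.34 in replicates 4 to 6 alone. The same genes stood at a median of 0.64 in STZ minus control mice and 0.53 in quercetin minus control mice. Cplane1, the third gene with a difference over 1, had 4.32, 8.58 and 9.49 in quercetin mice, 8.35, 9.14 and 9.76 in STZ mice and 4.25, 4.48 and 4.67 in control mice. Its difference of -1.003 (SE 0.54) was -0.27 without the 2 mice, and its other 5 probe sets ran from -0.45 to 0.09.

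Immune genes and macrophage markers lay lower in quercetin mice by their medians, and these medians were nearer to 0 without the same 2 mice. Of 28 interferon response genes 25 were below 0 with a median of -0.13, and the median was -0.02 without the 2 mice, with 0 genes called. By dose the medians were -0.10 at 0.1% and -0.15 at 0.5%, each minus STZ, and 0.09 at 0.5% without the 2 mice. Without them the median of 0.5% minus 0.1% was 0.20. By the unadjusted test 8 interferon genes were then higher and 0 lower at 0.5%, beside 2.2% and 2.78% of all genes. Rsad2, an antiviral radical SAM enzyme, was at 6.58, 7.25 and 7.60 in quercetin mice and 7.28, 7.57 and 7.66 in STZ mice. For Rsad2, 7 of 12 quercetin mice lay under every STZ mouse, and the difference was -0.36 (SE 0.13, adjusted p = 0.81), or -0.24 without the 2 mice. Mx2 and Gbp3, which are interferon-induced GTPases, differed by -0.31 (SE 0.15) and -0.30 (SE 0.15), and Usp18, which dampens interferon signalling, by -0.02 (SE 0.22), or 0.25 without the 2 mice.

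For the 7 MHC class II genes the median was -0.13 and 6 were below 0, and without the 2 mice it was -0.04. H2-Aa, an antigen-presenting chain, differed by -0.37 (SE 0.18) and Cd74, the invariant chain, by -0.33 (SE 0.16), or -0.16 and -0.13 without them. H2-Eb1 differed by -0.27 (SE 0.15). Of 15 tested macrophage and Kupffer cell markers of 16 listed, 14 were below 0 with a median of -0.12, and 0 were called. The median was -0.03 without the 2 mice and 0.02 in replicates 1 to 3 alone. Their summed intensity was 1451 to 2451 in quercetin mice, 2012 to 2581 in STZ mice and 1428 to 1863 in control mice. The scavenger receptor Msr1 differed by -0.28 (SE 0.12), the pore-forming protein Mpeg1 by -0.24 (SE 0.14) and the complement receptor Vsig4 by -0.17 (SE 0.10). The other 3 probe sets of Msr1 ran from -0.05 to 0.07. The part of macrophage content in the immune gene values was not tested.

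Pathways by which the liver handles foreign compounds gave 0 called genes. The aryl hydrocarbon receptor list had a median of 0.02 over 7 genes with 2 below 0, -0.06 on the values as deposited and -0.04 after median scaling. Without the 2 mice it was -0.01 with 6 below 0. Its classic target Cyp1a1 was at 4.51, 4.65 and 4.99 in quercetin mice, against 4.30, 4.69 and 4.80 in STZ mice, with a difference of 0.06 (SE 0.08, 95% interval -0.11 to 0.22). Among the enzymes that conjugate flavonoids the median was -0.03 over 19 genes, or 0.01 without the 2 mice, with 0 past an unadjusted p of 0.05. Ugt2b36, a glucuronosyltransferase, differed by 0.10 (SE 0.08), Sult1d1 by -0.32 (SE 0.21), and the estrogen sulfotransferase Sult1e1 by -0.39 (SE 0.28). STZ replicate 6 held Sult1e1 at 7.17 while the other 5 STZ mice were at 4.08 to 4.72, and without it the difference was 0.07.

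NRF2 targets, which encode antioxidant and detoxifying enzymes, had a median of -0.10 over 24 genes, with 18 below 0, and -0.04 without the 2 mice. By dose the medians were 0.03 at 0.1% and -0.22 at 0.5%, each minus STZ. Abcc4, an export pump for organic anions, differed by -0.32 (SE 0.10), or -0.36 to -0.21 with 1 array left out. It averaged 4.45 over all arrays, near the floor of 4.00. STZ replicate 6 held Abcc4 at 5.27, while the other STZ mice were at 4.54 to 4.68. Gstm2, a glutathione transferase, differed by -0.33 (SE 0.13) and Gsta2 by -0.45 (SE 0.36), or -0.05 for Gsta2 without the 2 mice. Nqo1, a quinone reductase, differed by -0.19 (SE 0.13) and Hmox1, heme oxygenase, by 0.03 (SE 0.12), which was -0.03 as deposited and -0.01 after median scaling. Nfe2l2, which encodes NRF2, differed by -0.14 (SE 0.13).

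Antioxidant enzymes and metallothioneins gave a median of 0.01 over 16 genes, -0.07 on the values as deposited and -0.04 after median scaling. Glutathione reductase, Gsr, was at 7.20, 7.45 and 7.72 in quercetin mice and 7.08, 7.33 and 7.41 in STZ mice, with 8 of 12 quercetin mice above every STZ mouse and a difference of 0.19 (SE 0.07, adjusted p = 0.81), against 0.04 from a second Gsr probe set. The peroxiredoxin Prdx4 differed by 0.20 (SE 0.08), while its other 2 probe sets gave -0.15 and -0.01. Another peroxiredoxin, Prdx3, differed by -0.10. Mt1, a metal-binding metallothionein, differed by 0.30 (SE 0.40), which was 1.01 in replicates 1 to 3, -0.41 in replicates 4 to 6 and -0.08 without STZ replicate 1.

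The CAR and PXR genes, which drugs and bile acids induce, had a median of -0.09 over 20 genes and -0.01 without the 2 mice. Cyp2b9 had 4.98, 7.87 and 9.11 in quercetin mice, 7.08, 8.37 and 8.69 in STZ mice and 4.93, 5.46 and 6.01 in control mice, with a difference of -0.59 (SE 0.42) that was -0.16 without the 2 mice. Ephx1, microsomal epoxide hydrolase, differed by -0.28 (SE 0.21), or 0.01 without them, and Cyp2c50 by -0.35 (SE 0.14). In bile acid metabolism the median was -0.03 over 16 genes. Cyp7a1, which sets the pace of making bile acids from cholesterol, ran from 4.83 through 6.56 to 8.95 in quercetin mice, against 4.41, 4.89 and 8.27 in STZ mice, and its difference of 0.84 had an SE of 0.58. Nr1h4, the bile acid receptor FXR, was at 7.22, 7.87 and 8.16 in quercetin mice and 7.16, 7.60 and 7.78 in STZ mice, with 8 of 12 quercetin mice above every STZ mouse and a difference of 0.26 (SE 0.11, adjusted p = 0.854). Amacr, a racemase of bile acid intermediates, differed by 0.17 (SE 0.06) and the reductase Akr1d1 by -0.36 (SE 0.15).

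**Figure D4:**
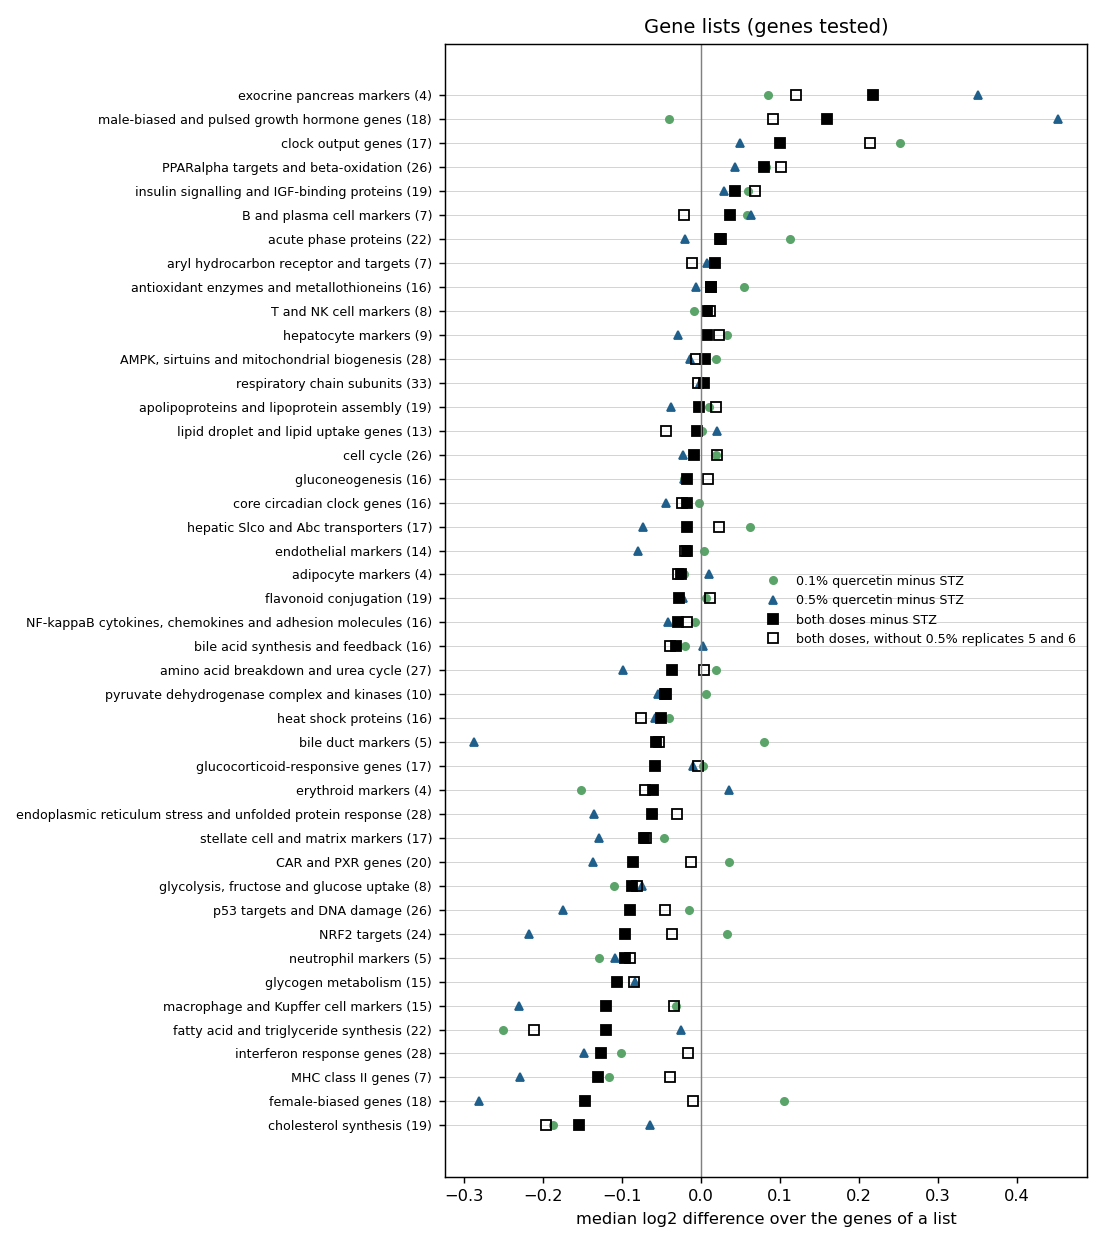
Median log2 difference from STZ over the tested genes of each of 44 lists, for 0.1% quercetin (circles), 0.5% quercetin (triangles), both doses (filled squares) and both doses without 0.5% replicates 5 and 6 (open squares). Cholesterol synthesis lies at -0.15 for both doses, fatty acid synthesis at -0.25 for 0.1% and -0.03 for 0.5%, and the male-biased genes at -0.04 for 0.1% and 0.45 for 0.5%.

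Growth hormone pulses set many liver genes that differ between the sexes, and the medians of these genes differed by dose, without a test. Of 18 male-biased genes 14 were above 0 for both doses minus STZ, with a median of 0.16 and 0 called, and the median was 0.09 without the 2 mice. It was -0.04 for 0.1% minus STZ and 0.45 for 0.5% minus STZ, which was 0.23 without the 2 mice. Egfr, the epidermal growth factor receptor, had 7.10, 8.56 and 10.24 in quercetin mice, 7.20, 7.54 and 8.93 in STZ mice and 8.15, 9.19 and 10.13 in control mice. The ranges overlapped, with 3 of 12 quercetin mice above every STZ mouse and 1 under them, and the difference was 0.85 (SE 0.30, adjusted p = 0.81), with -0.07 to 0.68 from 5 other probe sets of Egfr.

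Hsd3b5, a male-specific steroid dehydrogenase, had 6.63, 9.81 and 11.50 in quercetin mice and 8.63, 9.39 and 10.46 in STZ mice, with a difference of 0.00 (SE 0.45) that was -0.10 as deposited and -0.07 after median scaling. Susd4 differed by 0.26 (SE 0.11) and Cyp2d9 by -0.14 (SE 0.08). The 18 female-biased genes had a median of -0.15, or -0.01 without the 2 mice and 0.01 without STZ replicate 6. By dose their median was 0.11 for 0.1% minus STZ and -0.28 for 0.5% minus STZ, the last of which was -0.11 without the 2 mice. Cyp3a44, Nt5e and Ntrk2, the members with the smallest p, differed by -0.37 (SE 0.22), -0.20 (SE 0.13) and -0.20 (SE 0.13). A second Nt5e probe set gave 0.03, and the other 2 of Ntrk2 gave -0.09 and 0.08.

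Clock genes held the largest mean difference of all genes tested. In the liver clock, the activators Arntl, Clock and Npas2 switch on Per, Cry and Nr1d genes through E-boxes, and the products of Cry and Per shut them off. Dbp and Tef are activators and Nfil3 a repressor that act on D-boxes in output genes. Dbp was at 6.45, 9.08 and 9.49 in quercetin mice, against 5.56, 7.54 and 8.56 in STZ mice and 7.07, 8.003 and 8.96 in control mice. Of the quercetin mice, 8 of 12 lay above every STZ mouse and 2 inside the control range. The difference was 1.26 (SE 0.44, a fold of 2.40, adjusted p = 0.81), or 1.07 without the 2 mice, and a second Dbp probe set gave 1.02.

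Tef had 7.10, 7.66 and 8.23 in quercetin mice, 6.39, 7.17 and 7.64 in STZ mice and 6.89, 7.20 and 7.42 in control mice. For Tef 6 of 12 quercetin mice lay above every STZ mouse, and the difference was 0.50 (SE 0.16, adjusted p = 0.735), while 2 other probe sets of Tef gave 0.04 and 0.22. Cry1, a repressor of the core loop, was at 4.90, 4.98 and 5.94 in quercetin mice and 5.24, 5.52 and 6.07 in STZ mice, and 8 of 12 quercetin mice lay under every STZ mouse. Its difference was -0.43 (SE 0.14, adjusted p = 0.735).

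The promoters of Tef and Cry1 are printed because these genes had the smallest p of the output and the core clock list, and each holds an E-box in the window of 250 bases before a RefSeq start (GRCm38.p6). Capitals mark the E-box, CACGTG, which reads the same on both strands. The Tef window lies at chr15:81811164-81811413 on the plus strand, before the downstream of 2 listed starts, both of which follow an E-box, with the E-box opening 138 bases before it. The Cry1 window lies at chr10:85185055-85185304 on the minus strand, with the E-box opening 60 bases before the start.
Tef: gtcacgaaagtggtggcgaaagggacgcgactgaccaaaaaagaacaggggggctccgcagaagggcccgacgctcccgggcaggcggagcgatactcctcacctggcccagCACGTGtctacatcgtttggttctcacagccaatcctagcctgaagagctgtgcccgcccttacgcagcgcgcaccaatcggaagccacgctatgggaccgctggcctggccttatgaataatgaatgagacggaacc
Cry1: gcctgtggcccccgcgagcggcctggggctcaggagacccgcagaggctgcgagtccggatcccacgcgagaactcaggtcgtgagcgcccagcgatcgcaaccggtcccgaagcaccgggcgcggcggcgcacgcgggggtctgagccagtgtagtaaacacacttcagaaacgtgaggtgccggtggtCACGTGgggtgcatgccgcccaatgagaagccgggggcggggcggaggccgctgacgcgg
The 6 letters occurred in the window of 4 of 13 core clock genes, 3 of 15 clock output genes and 1031 of 10583 tested genes that had a window (9.74%), and in 1978 of 32851 windows in all (6.02%). The windows listed for Dbp and Nfil3 held 0. A match of letters is a description and not a bound site.

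Lonrf3, a rhythmic transcript, differed by -0.52 (SE 0.17), and Nr1d2, a repressor of Arntl, by 0.31 (SE 0.16). Npas2 differed by -0.41 (SE 0.21) and Per2 by -0.01 (SE 0.19). Arntl, Clock, Nfil3 and Rgs16 were chosen after their values were seen and differed by -0.50 (SE 0.27), -0.28 (SE 0.15), -0.51 (SE 0.19) and 0.84 (SE 0.34). A second Arntl probe set gave 0.04. Of the 16 core genes 0 were called, with 12 below 0 and a median of -0.02. Of the 17 output genes 0 were called, and 3 were higher (Dbp, Tef and Rgs16) and 3 lower (Lonrf3, Nfil3 and Cdkn1a) at an unadjusted p under 0.05, beside 2.81% and 2.78% of all genes. Their median was 0.10, or 0.21 without the 2 mice and -0.01 without STZ replicate 3.

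Levels of these genes were also read by replicate number, which no label ties to a cage or an hour. Dbp was at 6.45 to 9.49 in quercetin, 5.56 to 7.24 in STZ and 7.07 to 8.06 in control mice over replicates 1 to 3. Over replicates 4 to 6 it was at 9.02 to 9.36 in quercetin, 7.84 to 8.56 in STZ and 7.95 to 8.96 in control mice. The difference between quercetin and STZ mice was 1.57 in replicates 1 to 3 and 0.96 in replicates 4 to 6. For Tef it was 0.79 and 0.21, for Cry1 -0.46 and -0.40, for Nfil3 -0.62 and -0.41, and for Rgs16 1.75 and -0.06. Over all 4 groups, replicates 4 to 6 minus 1 to 3 gave 8 called genes of 13117 by limma, none of them a clock gene. At an unadjusted limma p under 0.05 there were 1148. These held Dbp at 1.29 (adjusted p = 0.0563), Arntl at -0.74, Npas2 at -0.59, Nfil3 at -0.50 and Tef at 0.38. They also held Lonrf3 at -0.44, Per2 at 0.41, Clock at -0.37, Nr1d2 at 0.35 and Cdkn1a at -0.93. Cry1 at -0.20 and Rgs16 at 0.53 were not among them. The part of the hour of death in these values was not tested.

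**Figure D5:**
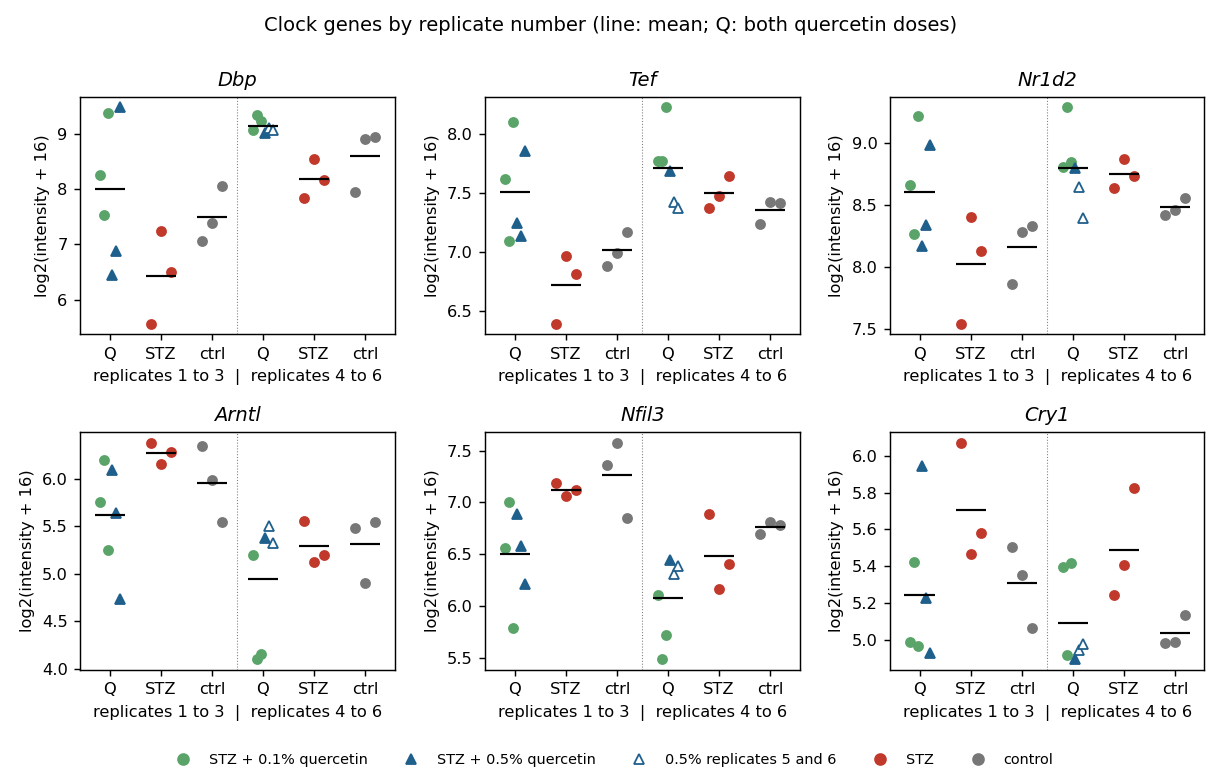
Log2(intensity + 16) of 6 clock genes in each mouse, split into replicates 1 to 3 and 4 to 6 of every group, with the mean as a line. Dbp ran from 6.45 to 9.49 in quercetin and from 5.56 to 7.24 in STZ mice in the first set, and from 9.02 to 9.36 and from 7.84 to 8.56 in the second.

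The other genes with the smallest p included several close to the floor. Aff2, a nuclear elongation factor gene, was at 4.24, 4.49 and 4.66 in quercetin mice, against 4.06, 4.15 and 4.29 in STZ mice and 4.38, 4.50 and 4.63 in control mice. For Aff2 11 of 12 quercetin mice lay above every STZ mouse, with a difference of 0.31 (SE 0.07, adjusted p = 0.507). With a constant of 1 in place of 16 its difference was 1.36 and passed (adjusted p = 0.0128), while a second probe set of Aff2 gave 0.03. Cd40, a costimulatory receptor, had 4.22 to 4.66 in quercetin mice and 4.07 to 4.27 in STZ mice. The deacetylase Hdac6 had 5.56, 5.81 and 6.24 in quercetin mice and 5.31, 5.48 and 5.72 in STZ mice, with a difference of 0.34 (SE 0.09). Crtc3, a coactivator of CREB, differed by 0.26 (SE 0.08), or 0.01 by a second probe set, and the other 6 of the 10 higher genes, 4930577N17Rik, Prss51, Plekhg3, Ephb1, Gm9946 and C87436, by 0.25 to 0.36.

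Of 13117 genes, 2 (0.0152%) had every quercetin mouse below every STZ mouse, and 0 had every one above. These were Rabgef1, an exchange factor for Rab5, and Itga2b, the platelet integrin chain, which was chosen after its values were seen. Rabgef1 had 5.85, 6.17 and 6.26 in quercetin mice, 6.26, 6.31 and 6.65 in STZ mice and 6.17, 6.23 and 6.32 in control mice. The gap between the groups was thus narrow, and the difference was -0.28 (SE 0.08, adjusted p = 0.735), with -0.25 and -0.03 from its other 2 probe sets. Itga2b had 4.42, 4.85 and 5.01 in quercetin mice and 5.05, 5.12 and 5.27 in STZ mice, with a difference of -0.33 (SE 0.10).

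Inhbb, the activin B chain, had 4.58, 4.87 and 5.35 in quercetin mice, 4.81, 5.36 and 6.02 in STZ mice and 4.58, 4.65 and 4.75 in control mice. For Inhbb 5 of 12 quercetin mice lay under every STZ mouse, and the difference was -0.51 (SE 0.13, adjusted p = 0.735), while a second Inhbb probe set gave -0.04. Wsb1 had 5.03, 5.39 and 6.20 in quercetin mice and 5.46, 6.00 and 6.46 in STZ mice, with a difference of -0.54 (SE 0.14). The remaining 6 lower genes, Zbtb21, Gbp8, Itpripl2, Akap2, Slc7a8 and Cep78, differed by -0.40 to -0.29.

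Exocrine pancreas markers were checked because pancreas lies beside liver at dissection. Of 15 listed, 4 were tested, and their summed intensity was 174 to 579 in quercetin mice, 186 to 273 in STZ mice and 492 to 666 in control mice. Prss2, a trypsinogen, differed by 0.42 (SE 0.15), or 0.11 by a second probe set above the filter. Cel, a bile-salt-stimulated lipase, differed by 0.19 (SE 0.07), and Cela1, an elastase, by 0.25 (SE 0.17), or 0.06 without 0.5% replicates 5 and 6. Over all arrays Prss2 and Cel averaged 4.77 and 4.58, near the floor of 4.00, and Cela1 averaged 8.23.

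Whether the 2 doses that were pooled differed was tested in the same fit. For 0.5% minus 0.1% quercetin, limma called 0 genes higher and 0 lower (0% each), with 501 higher (3.82%) and 593 lower (4.52%) at an unadjusted p under 0.05. Without 0.5% replicates 5 and 6 these were 289 higher (2.20%) and 365 lower (2.78%), and the smallest adjusted p was 0.919. With all mice the smallest adjusted p was 0.0874, for Pparg, a nuclear receptor that promotes fat storage. Pparg was at 4.14, 4.38 and 4.83 (lowest, median, highest) at 0.5% and 4.80, 5.00 and 5.25 at 0.1%, and the doses overlapped narrowly. Its difference was -0.58 (SE 0.10, 95% interval -0.80 to -0.37), and it passed only without 0.5% replicate 2 (-0.67, adjusted p = 0.00362), which made 1 gene lower. Without 0.5% replicates 5 and 6 it was -0.53 (SE 0.11, adjusted p = 0.919).

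Krt18 and Krt8, the paired keratins of hepatocytes and bile duct cells, were picked for their small p in the dose comparison. Genes picked in this way tend to have ranges that lie apart, and the share of all genes without overlap between doses was not counted. Krt18 was at 9.39, 9.51 and 9.71 at 0.5% and 9.82, 9.92 and 10.28 at 0.1%, a difference of -0.43 (SE 0.10, adjusted p = 0.308). Krt8 was at 8.92, 9.12 and 9.49 at 0.5% and 9.50, 9.63 and 9.75 at 0.1%, a difference of -0.48 (SE 0.11). The clock repressor Cry2 differed by -0.58 (SE 0.13) and Sh3pxd2b, a scaffold of invading cells, by -0.48 (SE 0.11). On the higher side, Nrp1, a coreceptor for VEGF and semaphorins, was at 8.47, 8.75 and 9.22 at 0.5% and 7.13, 8.10 and 8.34 at 0.1%, a difference of 0.88 (SE 0.19, adjusted p = 0.308). Sdr9c7, Fkbp8, Slc34a1 and Gramd3 differed by 0.35 to 0.53. Without the 2 mice Krt18 differed by -0.41, Krt8 by -0.47, Cry2 by -0.44 and Nrp1 by 0.84.

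For some genes and lists the dose means lay apart, although no dose difference passed. G6pc was at 8.62, 10.03 and 10.39 at 0.5% and 8.05, 8.70 and 9.47 at 0.1%, a difference of 1.00 (SE 0.30, adjusted p = 0.392), or 0.70 without the 2 mice. Hsd3b5 was at 9.31, 10.30 and 11.50 at 0.5% and 6.63, 8.60 and 10.51 at 0.1%, a difference of 1.77 (SE 0.52, adjusted p = 0.355), or 1.24 without them. For the 22 fatty acid and triglyceride genes the median dose difference was 0.28, with 9 genes higher and 0 lower at 0.5% by the unadjusted test. For the 18 male-biased genes it was 0.56, with 11 higher and 0 lower, and for the 24 NRF2 targets -0.20, with 0 higher and 10 lower, beside 3.82% higher and 4.52% lower over all genes. Without the 2 mice the medians were 0.13, 0.35 and -0.10, with 2, 4 and 0 genes higher and 0, 0 and 2 lower, beside 2.20% higher and 2.78% lower over all genes.

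The untreated mice give the background against which the STZ-injected mice can be read. For both quercetin doses minus control, limma called 264 genes higher (2.01%) and 264 lower (2.01%). Median scaling gave 148 higher and 937 lower, so the split again rested on the scaling. Without control replicate 2 there were 167 lower, without control replicate 3 there were 173 higher and 143 lower, and without control replicate 4 there were 158 lower. The Gapdh difference ran from -0.48 to 0.0028 in quercetin and from -0.16 to 0.26 in control mice, and with it as a covariate 2 genes were called higher and 1 lower. In replicates 4 to 6 alone 0 were called in either direction (709 higher and 739 lower at an unadjusted p under 0.05).

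Ly6d, a lymphocyte surface antigen gene, rose in quercetin mice against control mice, with 4.59, 6.65 and 7.03 in quercetin mice, 6.23, 6.98 and 7.58 in STZ mice and 4.54, 4.63 and 4.98 in control mice (difference from control 1.63, SE 0.23, adjusted p = 0.000408). Phlda3 rose by 1.98 (SE 0.27), Mbl2, a mannose-binding lectin of the complement system, by 1.01 (SE 0.14), Ifi27l2b, an interferon-induced gene, by 0.81 (SE 0.10), and Aebp2, a Polycomb cofactor, by 0.47 (SE 0.06). For Ifi27l2b and Aebp2 all 12 quercetin mice lay above every control mouse, and for Phlda3 and Mbl2 10 of 12 did. Tcf24, Rnase2a, Ces1e, Cela1 and Tspan33 fell by 1.16, 1.18, 1.08, 1.13 and 0.77, with 10 to 11 of 12 quercetin mice below every control mouse. Beside these, the same 10 genes differed between quercetin and STZ mice by -0.64 to 0.25, and none passed that test.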

How the data were processed

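Affymetrix 3' arrays measured liver RNA of 24 mice, 1 array per mouse, and groups were taken from the titles. The authors deposited 1 linear intensity per probe set and array, and the summary algorithm and any scaling by the authors are not given in the sources used here. Mean intensity was 61.0 to 102.0 per array, so the intensities were quantile normalized over 24 arrays and taken as log2(intensity + 16). Probe sets (45101, of which 64 controls) were named from the platform table: 34958 had 1 symbol, 932 several and 9211 none, and 34754 of the first matched the GRCm38.p6 gene table. A gene was read from its probe set with the highest mean, and 13117 of 18193 genes passed the 40th percentile filter. All comparisons came from 1 limma 3.58.1 fit (R 4.3.3) of 4 group means, two-sided, with Benjamini-Hochberg adjustment and a threshold of 0.05. The spread is that between mice, and mice are treated as independent. Array measures were compared by an exact permutation test over 18564 arrangements.

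The genes named were drawn from the 10 with the smallest p in each direction and 31 genes fixed by name (29 tested). Others came from the 3 members with the smallest p of each list described, and not all of these are named. A further 5 in each direction came from the dose and control comparisons. The members and the 44 gene lists were chosen with earlier results of these data known. Lists carry counts and medians, with no test. The statistics were tested on simulated data. Alternatives changed the scaling, constant, filter, probe set rule, samples, replicate block, Gapdh covariate and array weights, and left out each array. Replicate numbers are shared by the groups. Correlations of same-numbered mice across the STZ-injected groups ran from -0.14 to 0.32. They were over 0.1 in 3 of 18 pairs, beside 19 of 90 pairs of unlike numbers, and mice were not treated as paired. Whether same-numbered mice shared a cage, day or hour cannot be read from these correlations and was not tested. Promoter windows are RefSeq's.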

Additional observations from a re-analysis of the deposited data

Results flagged for a closer look

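Of 512 sets of 6 levels tested, 20 had a mouse standing apart from the rest of its group by Dixon's criterion, and chance alone flags about 1 in 20 sets, or 25.6 here. Of the quercetin mice, 0.5% replicate 1 was the highest of its group for Cry1 (5.943) and the lowest for Ppargc1a (4.746), 0.5% replicate 6 was the lowest for Gbp8 (4.046), and 0.1% replicate 1 was the highest for Vsig4 (7.88). Among STZ mice, replicate 2 was the highest for Sqle (6.601) and the lowest for Cyp1a1 (4.296) and Ephx1 (10.77). STZ replicate 4 was the highest for Pdk1 (7.446) and the lowest for Cel (4.096). STZ replicate 6 was the highest for Abcc4 (5.272) and Sult1e1 (7.166) and the lowest for Crtc3 (5.227). Among control mice, replicate 1 was the highest for Cyp2d9 (11.91), replicate 3 the highest for Prdx4 (9.542) and Prss51 (4.576), and replicate 4 the lowest for Nfe2l2 (7.419). Control replicate 5 was the highest for Nrp1 (9.137) and the lowest for Msr1 (5.11), and control replicate 6 was the lowest for Aldh1a1 (11.41) and Wsb1 (5.241). Levels are log2(intensity + 16). The part of these mice in the values was tested only by leaving each out.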

How the results depend on the processing

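Between quercetin and STZ mice limma called 0 genes in either direction under every one of the 16 alternatives and 24 left-out arrays, except for 1 gene higher (Aff2) with a constant of 1. With the replicate number as a block, 0 were called higher and 0 lower (383 and 379 at an unadjusted p under 0.05), and the block changed no call for the doses (0 and 0) and gave 243 higher and 226 lower against control. Leaving out 1 array gave 0 to 1 gene lower at 0.5% than at 0.1%, and against control 173 to 370 genes higher and 143 to 359 lower. The counts against control were 65 higher and 65 lower on the values as deposited, 148 and 937 with median scaling, 149 and 94 in replicates 1 to 3, 0 and 0 in replicates 4 to 6, 2 and 1 with the Gapdh covariate, 426 and 423 with array weights, and 531 and 543 without 0.5% replicates 5 and 6. Replicates 1 to 3 or 4 to 6 alone use 12 arrays; the other causes were not tested.

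Of 130 results for named genes, 111 kept their direction under every alternative. On the values as deposited the difference from STZ was -0.028 for Hmox1, -0.10 for Hsd3b5, -0.053 for Ppargc1a and -0.079 for Gys2, and with median scaling -0.013, -0.070, -0.035 and -0.048. Hsd3b5 was at -0.019 with a constant of 1 and Per2 at 0.0043 with 64. With the mean of a gene's probe sets Ppargc1a was at -0.078 and Per2 at 0.074. In replicates 1 to 3 alone Phlda3 was at 0.16, Ephx1 at 0.038, Usp18 at 0.28, Nnmt at 0.32, Per2 at 0.016, Sult1e1 at 0.23, Cyp2d9 at 0.048, Mpeg1 at 0.030 and Vsig4 at 0.071. In replicates 4 to 6 alone G6pc was at 0.098, Hmox1 at -0.24, Hsd3b5 at -0.14, Mt1 at -0.41, Ppargc1a at -0.012, Gys2 at -0.12 and Rgs16 at -0.062. With the Gapdh covariate Hsd3b5 was at -0.33, Usp18 at 0.071, Nnmt at 0.0067 and Per2 at 0.042, and with array weights Hsd3b5 was at -0.071, Usp18 at 0.040 and Per2 at 0.011. Without 0.5% replicates 5 and 6 Ephx1 was at 0.0062, Hsd3b5 at -0.26, Usp18 at 0.25, Nnmt at 0.14 and Ppargc1a at -0.0028. With 1 array left out, 11 genes turned: Ahr ran from -0.18 to 0.0072, Cyp1a1 from -0.013 to 0.088, Gys2 from -0.012 to 0.11, Hmox1 from -0.020 to 0.11, Hsd3b5 from -0.19 to 0.20, Mt1 from -0.082 to 0.62, Per2 from -0.11 to 0.10, Ppargc1a from -0.051 to 0.060, Sqle from -0.23 to 0.038, Sult1e1 from -0.55 to 0.067 and Usp18 from -0.095 to 0.13. Signals near the background limit precision, as for Aff2, which differed by 0.31 with a constant of 16 and by 1.36 with a constant of 1.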

Other observations

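Lists not described above gave 0 called genes between quercetin and STZ mice. The 26 PPARalpha targets and beta-oxidation genes had a median difference of 0.08 with 18 above 0, which was -0.02 on the values as deposited and 0.10 without 0.5% replicates 5 and 6. The 33 respiratory chain subunits had a median of 0.0039 and lay between -0.08 and 0.09, the narrowest span of the lists with over 20 genes. The 28 endoplasmic reticulum stress genes had a median of -0.06 with 20 below 0, and the 16 heat shock genes -0.05. The 28 genes for AMPK, sirtuins and mitochondrial biogenesis had a median of 0.01, with 15 above and 13 below 0, and -0.08 on the values as deposited. Without 0.5% replicates 5 and 6 the medians were -0.0034 for the respiratory chain, -0.03 for endoplasmic reticulum stress, -0.08 for heat shock and -0.0065 for AMPK and sirtuins.

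Over the tested markers of other cell types the median differences between quercetin and STZ mice were 0.04 for 7 B and plasma cell markers (-0.02 without 0.5% replicates 5 and 6), 0.01 for 8 T and NK cell markers, -0.10 for 5 neutrophil markers, -0.06 for 4 erythroid markers, -0.07 for 17 stellate cell and matrix markers and -0.02 for 14 endothelial markers. For 5 bile duct markers, which include Krt8 and Krt18, the median was -0.06, beside medians of -0.29 at 0.5% and 0.08 at 0.1%, each minus STZ. No change in these lists passed the test. The summed intensity of the B and plasma cell markers was 84.5 to 262 in quercetin mice, 63.8 to 126 in STZ mice and 194 to 356 in control mice.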
